A study of Mus musculus with 12 samples.

Results

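The heat shock chaperones described here are 10 genes on a list of names, drawn up with earlier results of these data known: Hspa1a, Hspa1b, Hspa8, Hsp90aa1, Dnajb1, Hspb1, Cryab, Hspb6, Hspb7 and Bag3. They are 10 of the 22584 genes in the count table, and all 10 were among the 15004 genes that passed the filter on low counts. RNA with poly(A) tails was sequenced from cardiomyocytes of wild-type C57BL6 mouse hearts, in 12 libraries. Per the labels, 3 libraries came from mice given AngII (angiotensin II, a hormone that raises blood pressure), a high salt diet and uninephrectomy, the removal of 1 kidney, and injected with JV001. Another 3 came from mice with the same AngII, diet and uninephrectomy and an injection of saline, 3 from sham-operated mice injected with JV001, and 3 from sham-operated mice injected with saline. The design text calls the AngII mice CKD (chronic kidney disease) mice, and the groups are named CKD JV001, CKD saline, sham JV001 and sham saline here. A duration of 12 weeks is stated for every group except CKD saline, for which none is given, and the age of the mice is not stated. The series concerns telomere recapping by gene therapy in cardio-renal disease, and the labels do not say what JV001 is made of. Nothing in the labels says that the 3 libraries of a group came from separate animals, so the p-values measure the spread between these libraries, which may be technical.

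Chaperones bind unfolded or newly made proteins and keep them from aggregating. In the cytosol, HSP70 proteins bind exposed stretches of a client with the help of J-domain partners, pass some clients on to HSP90, and are stripped of them by nucleotide exchange factors such as BAG proteins. Small heat shock proteins hold unfolding clients without using ATP, and in heart muscle they sit on the sarcomere and the intermediate filaments. Mutations of CRYAB and BAG3 cause myopathies with protein aggregates in humans. Under heat or proteotoxic stress the heat shock factor HSF1 switches on several of these genes, above all the inducible HSP70 pair Hspa1a and Hspa1b, whereas Hspb6 and Hspb7 are known as muscle genes.

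Depth and cell markers set what can be read from the libraries. Total counts were between 25.2 and 37.0 per library in units of 1e6, and the 10 genes made up 0.513% to 0.816% of them. Library 3 of each CKD group stood apart from its partners. The SD of log2 ratios between libraries of a group, over genes with a mean of at least 1000 reads, was 1.04 to 1.05 between CKD JV001 3 and the other CKD JV001 libraries, and 0.75 to 0.76 between CKD saline 3 and the other CKD saline libraries. Libraries 1 and 2 of CKD JV001 (0.12) and of CKD saline (0.11) were the closest pairs of all. Sham saline 1 stood apart too, at 0.60 to 0.64 from the other sham saline libraries, which were at 0.23 from each other. It held 4137 CPM of 4 summed atrial markers and 1147 CPM of 6 summed endothelial markers, against 387 to 1393 CPM and 320.4 to 439 CPM in sham saline 2 and 3. The atrial sum was 635 to 1002 CPM in CKD JV001, 178 to 290 CPM in CKD saline and 838 to 3076 CPM in sham JV001. The endothelial sum was 1694 to 2092 CPM in CKD JV001, 597 to 2134 CPM in CKD saline and 760 to 897 CPM in sham JV001. Cardiomyocyte markers were present in every library: all 12 ventricular markers, such as Myh6, Tnnt2 and Ttn, were detected. The sum of these 12 markers was 54131, 54387 and 23949 CPM (counts per 1e6 counts, with TMM scaling) in CKD JV001, 87608, 88148 and 48825 CPM in CKD saline, 76732 to 84672 CPM in sham JV001 and 70501 to 98150 CPM in sham saline. Markers of other cells ran the other way: the 6 neutrophil markers together reached 295 CPM in CKD JV001 3 and 68.8 CPM in CKD saline 3, against at most 14.5 CPM in each of the other 10 libraries. All 6 were detected in every CKD library, and up to 4 of the 6 were at 0 in a sham library. The 7 fibroblast markers together had 992 to 1343 CPM in CKD JV001, 222, 224 and 844 CPM in CKD saline, 243 to 504 CPM in sham JV001 and 140.5 to 494 CPM in sham saline. In such bulk RNA, fewer cells of a type and less RNA per cell cannot be told apart.

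Promoter windows of 4 of the genes are shown: the inducible HSP70 pair, because its 2 genes varied most, and Hspb1 and Hspb7, as a small heat shock protein window with matches and one without. Each is the 250 bases before the annotated start on the gene's own strand, from RefSeq on build GRCm38.p6, which is not the build GRCm39 on which the authors' reads were counted. Capitals mark matches to GAANNTTC, the paired GAA unit of a heat shock element, which reads the same on both strands.
Hspa1a, chr17:34972157-34972406, minus strand: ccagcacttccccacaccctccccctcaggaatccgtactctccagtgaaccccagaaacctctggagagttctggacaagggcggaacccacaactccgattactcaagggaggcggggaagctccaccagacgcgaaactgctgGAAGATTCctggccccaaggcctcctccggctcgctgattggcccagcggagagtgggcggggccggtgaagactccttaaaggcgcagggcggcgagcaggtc
Hspa1b, chr17:34959239-34959488, minus strand: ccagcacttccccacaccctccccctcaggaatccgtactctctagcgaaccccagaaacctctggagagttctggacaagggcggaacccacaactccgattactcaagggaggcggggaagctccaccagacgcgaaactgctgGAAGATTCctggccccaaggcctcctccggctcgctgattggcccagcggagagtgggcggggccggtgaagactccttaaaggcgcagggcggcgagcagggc
Hspb1, chr5:135887669-135887918, plus strand: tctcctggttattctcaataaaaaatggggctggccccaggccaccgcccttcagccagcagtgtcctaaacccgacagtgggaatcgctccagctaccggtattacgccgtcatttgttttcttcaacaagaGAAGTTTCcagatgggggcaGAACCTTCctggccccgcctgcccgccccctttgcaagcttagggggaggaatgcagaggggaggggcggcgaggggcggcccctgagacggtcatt
Hspb7, chr4:141420529-141420778, plus strand: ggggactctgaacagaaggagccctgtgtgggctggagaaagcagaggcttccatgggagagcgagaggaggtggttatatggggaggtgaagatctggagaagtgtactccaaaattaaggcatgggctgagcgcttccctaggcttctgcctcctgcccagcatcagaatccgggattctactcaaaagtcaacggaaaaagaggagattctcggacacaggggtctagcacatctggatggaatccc

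The Hspa1a and Hspa1b windows were 98.8% identical. They differed at 3 of 250 positions, C44T, T47C and T249G, with the Hspa1a base first and positions counted from 1 at the 5′ end. Both held GAAGATTC, whose first base lay 104 bases before the start. The Hspb1 window held GAAGTTTC at 117 and GAACCTTC at 97 bases before the start, and the Hspb7 window held no match. RefSeq windows were found for 7 of the 10 genes, and 4 of the 7 held GAANNTTC or its other form TTCNNGAA, counting Hspb6 through GAAGTTTC at the second of its starts. Between CKD JV001 and CKD saline, Hspa1a, Hspa1b and Hspb1 had a match and a positive log2 fold change, and Hspb7 and Bag3 no match and a negative one. The other way round, Dnajb1, at 0.23, had none in the windows of either start, and Hspb6, at -0.68, had 1. A link between matches and fold changes was not tested. Over all 32851 windows of the same length, 12.8% held at least 1 of the 2 forms. That share is per window, while the 4 of 7 is per gene with any start counted, so these are not like units. The nearly identical windows of Hspa1a and Hspa1b are also both counted among the 4. Forms with 3 units, that is GAANNTTC followed by NNGAA or TTCNNGAA followed by NNTTC, were in 0 of the 7 genes and in 0.466% of all windows. A match is a stretch of letters, and no binding was measured.

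Levels per gene length were read from the authors' FPKM (reads per kilobase of gene and per 1e6 reads). By the median over 12 libraries the order was Cryab (743 FPKM), Hspb7 (709 FPKM), Hspa8 (685 FPKM), Hspb6 (319.8 FPKM), Hspb1 (276 FPKM), Bag3 (95.4 FPKM), Hsp90aa1 (60.0 FPKM), Hspa1a (28.2 FPKM), Hspa1b (24.7 FPKM) and Dnajb1 (19.8 FPKM). The ranges of neighbours in this order overlapped, except that all 12 Hspa8 values lay above all Hspb6 values (at most 473 FPKM), and all Hspb1 values (at least 223 FPKM) above all Bag3 values (at most 122 FPKM). The first 3 genes are therefore not ordered beyond their spread: Cryab ranged from 287 to 866 FPKM, Hspb7 from 226 to 966 FPKM and Hspa8 from 615 to 1587 FPKM. All 10 lay at or above the 87.4th percentile of the tested genes by median FPKM. By these medians the small heat shock proteins of muscle and the constitutive HSC70 stood highest. The inducible HSP70 pair and the J-domain partner Dnajb1 were lowest per length. The order did not hold in CKD JV001 3. There Hspb1 (870 FPKM) and Hspa1b (353 FPKM) exceeded Cryab (287 FPKM), Hspb7 (226 FPKM) and Hspb6 (123 FPKM), and Hspa1a (160 FPKM) exceeded Hspb6. The highest library was 127 times the lowest for Hspa1b and 40.8 times for Hspa1a, 6.48 times for Hsp90aa1, and 1.53 times for Bag3. Among all tested genes the SD of log2 CPM of Hspa1b stood at percentile 99.2, that of Hspa1a at 97.0 and that of Bag3 at 15.2.

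**Figure D1:**
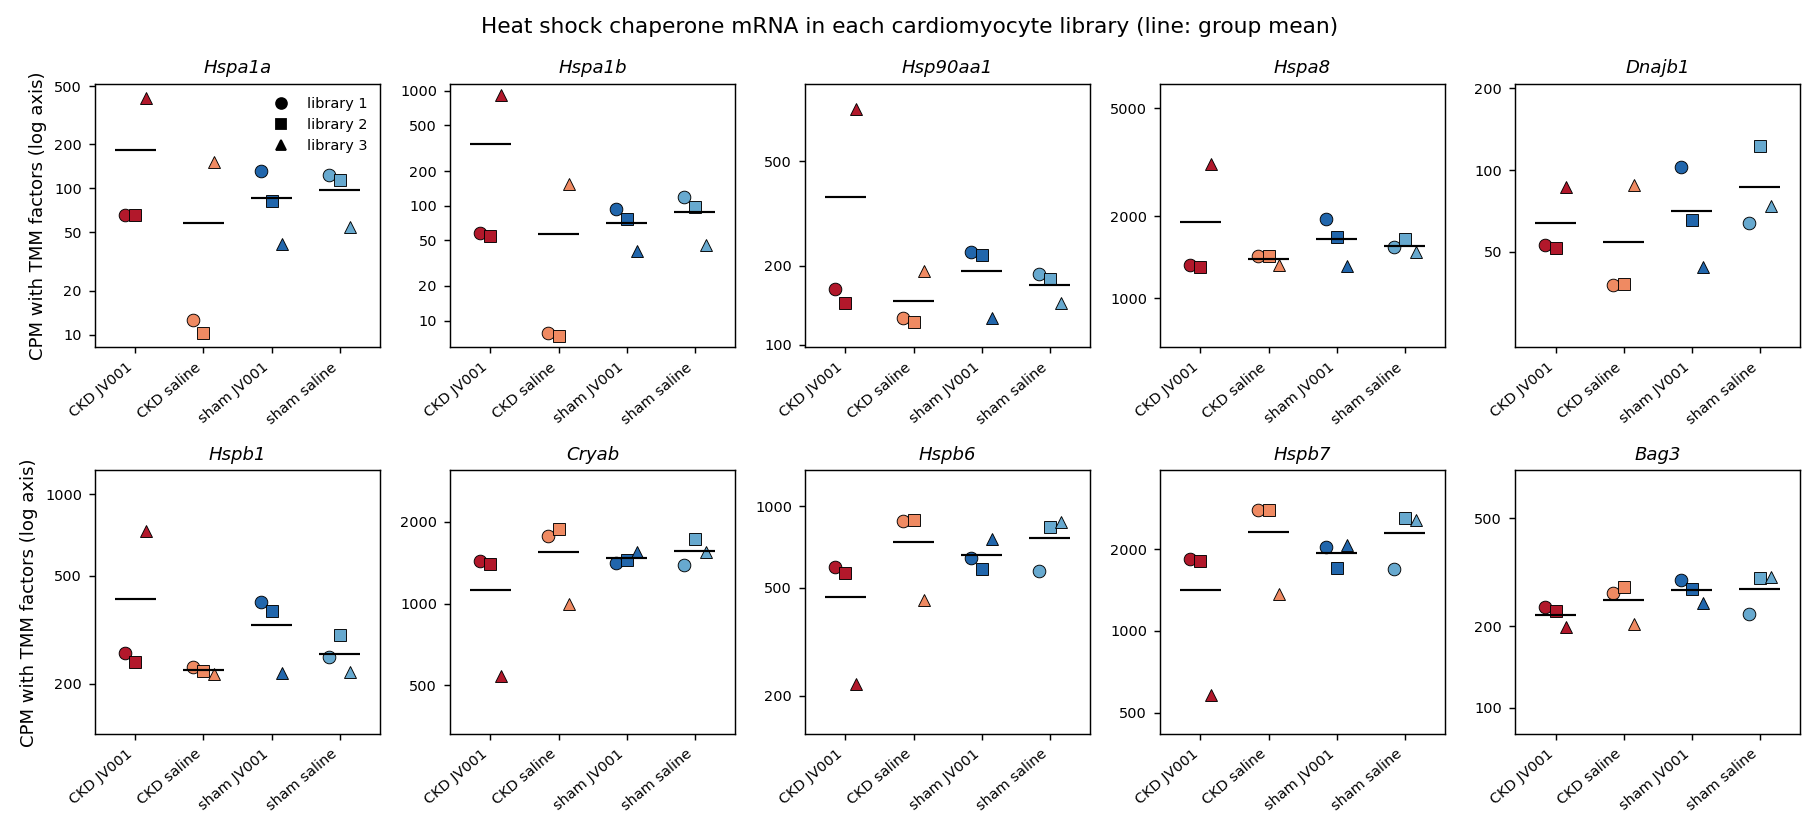
Normalised expression of the 10 genes in CPM (log axis) in each of the 12 libraries, by group; circles, squares and triangles are libraries 1, 2 and 3, and lines are group means. CKD JV001 3 is the highest library for Hspa1a, Hspa1b, Hsp90aa1, Hspa8 and Hspb1 and the lowest for Cryab, Hspb6, Hspb7 and Bag3.

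The inducible HSP70 genes came first in variation. Hspa1a encodes HSPA1A, the major stress-inducible HSP70. It had 65.2, 66.2 and 416 CPM in CKD JV001, 12.5, 10.2 and 151 CPM in CKD saline, 132, 82.1 and 41.9 CPM in sham JV001, and 123, 114 and 54.0 CPM in sham saline. CKD saline 1 and 2 were the lowest of the 12 libraries and CKD JV001 3 and CKD saline 3 the highest, so the CKD groups overlapped each other and the sham groups. Hspa1b, its neighbour on chromosome 17 with a nearly identical protein, had 58.1, 54.0 and 923 CPM in CKD JV001, 7.85, 7.29 and 155 CPM in CKD saline, 93.7, 77.0 and 40.6 CPM in sham JV001, and 119, 97.7 and 45.1 CPM in sham saline. The same libraries were at the extremes, and no pair of groups was free of overlap for either gene. CKD JV001 against CKD saline gave the largest differences of the 10 genes, a log2 fold change of 2.61 (SE 1.30) for Hspa1b and 1.65 (SE 1.03) for Hspa1a. Neither passed edgeR's quasi-likelihood test with Benjamini-Hochberg adjustment over all tested genes (adjusted p = 0.287 for Hspa1b and 0.338 for Hspa1a). Group means were 345 ± 500.4 CPM in CKD JV001 and 56.7 ± 85.0 CPM in CKD saline for Hspa1b (SD, n = 3 each), so each SD exceeded its mean.

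Reads of the pair are uncertain where they could belong to either gene. In the GENCODE vM21 transcripts, 47.1% of the 100-base stretches of Hspa1a also occurred in Hspa1b, and 49.9% of those of Hspa1b in Hspa1a, and how the authors' counting treated such reads is not given in the sources used here. If such reads were left out of the counts, the CPM and FPKM of both genes and their sum would be too low. Of the reads given to either gene, Hspa1b took 68.9% in CKD JV001 3 (exact binomial 95% interval 68.5% to 69.4%, for counting error only). It took 50.6% (49.5% to 51.7%) in CKD saline 3 and 38.5% to 49.2% in each of the other 10 libraries. The library with the most HSP70 reads was thus also the one whose split leaned furthest to Hspa1b. Summed into 1 gene before the fit, the pair had 123, 120.2 and 1338 CPM in CKD JV001, 20.4, 17.5 and 306 CPM in CKD saline, 226, 159 and 82.4 CPM in sham JV001, and 243, 211 and 99.1 CPM in sham saline. The summed pair differed by a log2 fold change of 2.20 between CKD JV001 and CKD saline (edgeR, adjusted p = 0.295).

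**Figure D2:**
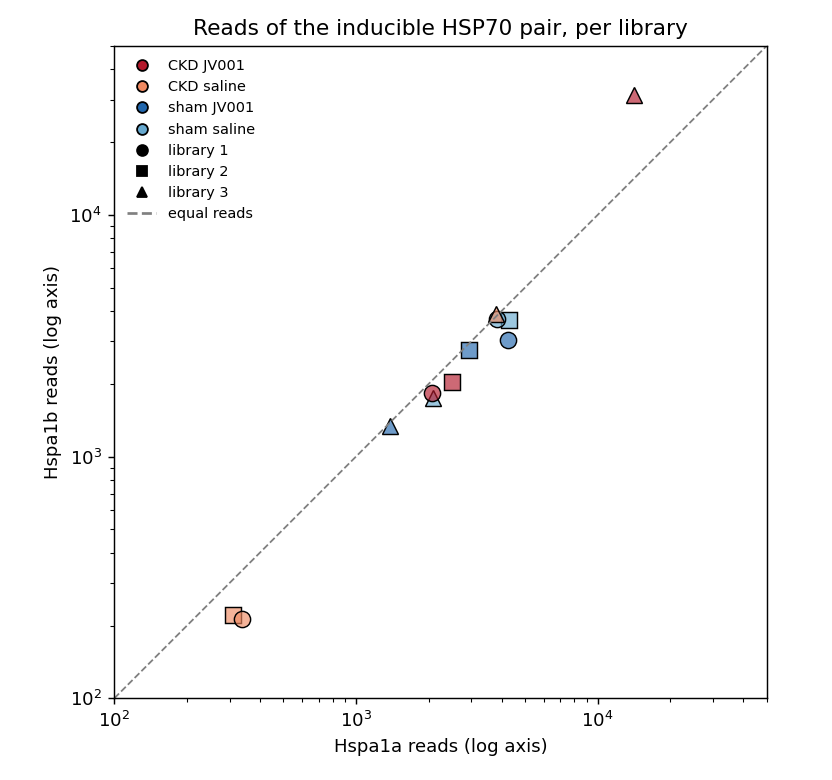
Deposited reads of Hspa1b (vertical, log axis) against Hspa1a (horizontal, log axis) in each library, with colour for the group, shape for the library number and a dashed line for equal reads. CKD JV001 3 lies above the line with 14167 Hspa1a and 31446 Hspa1b reads, and CKD saline 1 and 2 lie lowest, with 338 and 309 Hspa1a reads.

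Hsp90aa1, Hspa8 and Dnajb1 complete the HSP70 and HSP90 machine. Hsp90aa1, the stress-inducible HSP90 isoform, had 163, 144 and 789 CPM in CKD JV001, 126, 122 and 191 CPM in CKD saline, 225, 220.1 and 126 CPM in sham JV001, and 186, 177 and 144 CPM in sham saline. CKD JV001 3 alone was above the range of the other 11 libraries, and the groups overlapped. Hspa8 encodes HSC70, the HSP70 made without stress, and had 1319, 1304 and 3105 CPM in CKD JV001, 1429.8, 1433 and 1321 CPM in CKD saline, 1956, 1673 and 1313 CPM in sham JV001, and 1546, 1656 and 1479 CPM in sham saline. All 3 CKD saline values were under the sham saline values, by a log2 fold change of -0.16 (SE 0.31; edgeR, adjusted p = 0.985). Over all tested genes, 6.44% were lower in CKD saline without overlap in that comparison. Hspa8 exceeded the summed inducible pair in every library, by 70.2 and 82.0 times in CKD saline 1 and 2 but by 2.32 times in CKD JV001 3, in reads and not per length. These ratios would be too high if reads shared by the pair were left out of the counts. Dnajb1, the J-domain protein that delivers clients to HSP70, had 53.1, 51.6 and 86.6 CPM in CKD JV001, 37.8, 37.9 and 87.9 CPM in CKD saline, 103, 65.2 and 44.0 CPM in sham JV001, and 64.0, 122 and 74.0 CPM in sham saline. Its lowest libraries were CKD saline 1 and 2, as for the HSP70 pair, but its highest was sham saline 2.

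The small heat shock proteins split into Hspb1 and 3 muscle genes. Hspb1 encodes HSP27, which holds unfolding proteins and binds actin and filamin, and had 259.8, 240.3 and 731 CPM in CKD JV001, 231, 223 and 218 CPM in CKD saline, 402, 370.1 and 219 CPM in sham JV001, and 250.2, 302 and 220.4 CPM in sham saline. All 3 CKD JV001 libraries lay above all 3 CKD saline libraries, as did 8.22% of all tested genes. The lowest CKD JV001 value, 240.3 CPM, was close to the highest CKD saline value, 231 CPM. Cryab encodes alphaB-crystallin, which binds desmin and titin, and had 1437, 1397 and 544 CPM in CKD JV001, 1771, 1882 and 998 CPM in CKD saline, 1409.5, 1443 and 1550.3 CPM in sham JV001, and 1386, 1730.0 and 1554 CPM in sham saline. Library 3 was the lowest of each CKD group, and these 2 libraries were the lowest of all 12. Hspb6 encodes HSP20, a small heat shock protein of cardiac and smooth muscle, and had 596, 566 and 220.2 CPM in CKD JV001, 881, 887 and 449 CPM in CKD saline, 646, 586 and 758 CPM in sham JV001, and 575, 839.7 and 874 CPM in sham saline. Hspb7 encodes the cardiovascular small heat shock protein, which binds filamin C, and had 1845, 1817 and 581 CPM in CKD JV001, 2800.3, 2796 and 1367 CPM in CKD saline, 2037, 1699.9 and 2075 CPM in sham JV001, and 1694, 2602 and 2563 CPM in sham saline. Both had the same 2 lowest libraries as Cryab, and all groups overlapped. The likeness of the 3 muscle genes is a description over 12 points that share depth and scaling: the root mean square difference of their log2 CPM, each centred on its own mean over 12 libraries, was 0.09 between Hspb6 and Hspb7, 0.14 between Cryab and Hspb6 and 0.18 between Cryab and Hspb7, where the SD of log2 CPM was 0.48 for Cryab, 0.57 for Hspb6 and 0.62 for Hspb7. It was 0.20 between Hspb1 and Hspa8, with SDs of 0.52 and 0.36, and 0.44 between Hspa1a and Hspa1b, with SDs of 1.49 and 1.85. The difference grows with the spread of the genes, so it does not rank these pairs by how closely they followed each other. In the GENCODE vM21 annotation Cryab overlaps exons of Hspb2 on the opposite strand, Hspb6 those of Lin37 and Proser3, and Hspa1a those of Gm20481, so reads of these neighbours may not be separate, as the strand setting is not given in the sources used here. On the same strand Hspb6 overlaps exons of Gm38670, and Hspa8 those of Snord14c, Snord14d and Snord14e. No strand setting would separate these.

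Bag3 is the nucleotide exchange factor that links HSP70 to the small heat shock proteins and to autophagy of damaged sarcomere proteins. It had 235, 227 and 198 CPM in CKD JV001, 265, 279 and 204 CPM in CKD saline, 297, 274 and 243 CPM in sham JV001, and 221, 300.0 and 303 CPM in sham saline. It was the steadiest of the 10 genes. All CKD JV001 values were under all sham JV001 values, as for 20.1% of all tested genes in the same direction, with a log2 fold change of -0.30 (SE 0.18; edgeR, adjusted p = 0.271).

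**Figure D3:**
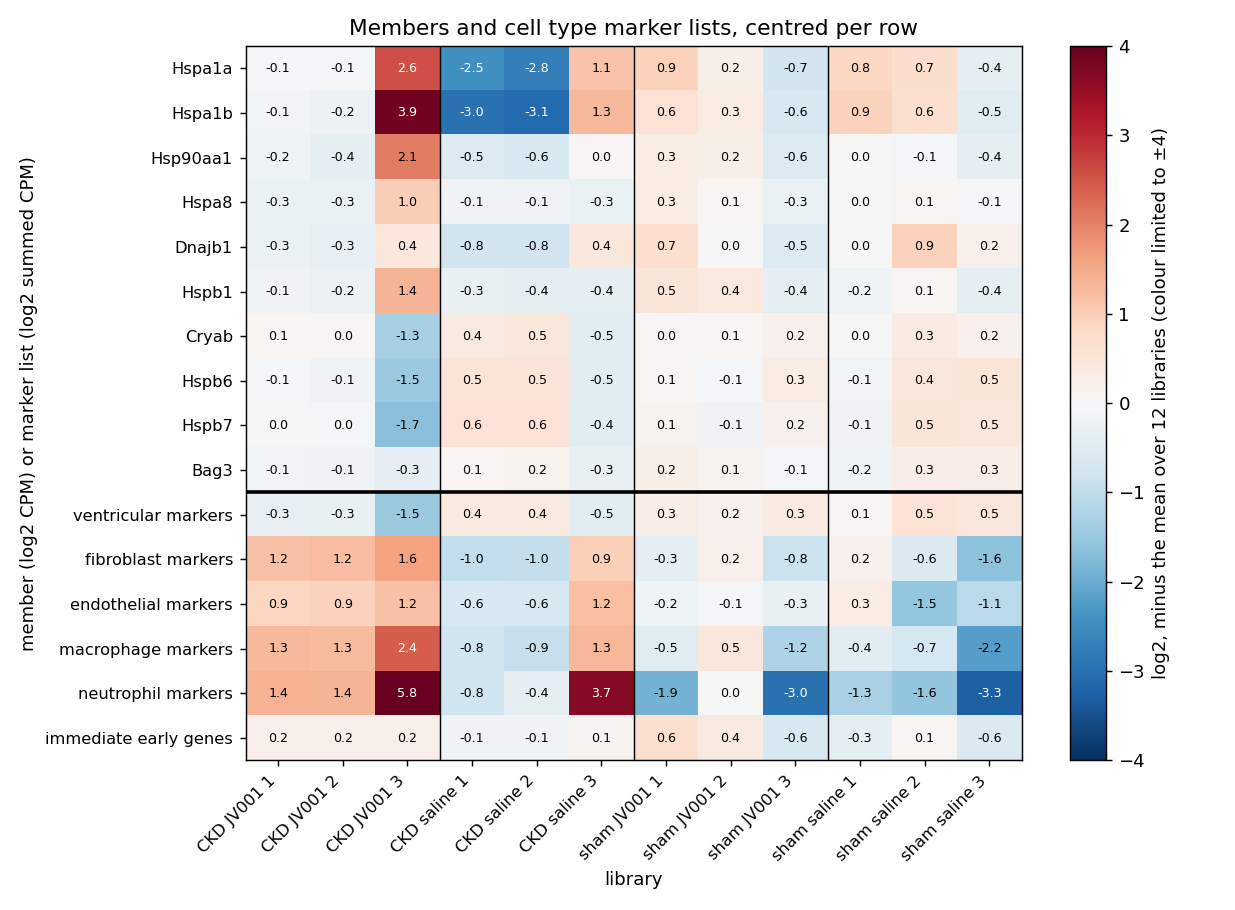
Log2 CPM of each gene (upper rows) and log2 summed CPM of 6 marker lists (lower rows) minus the mean over the 12 libraries; columns are libraries and colour is limited to ±4. Hspa1a and Hspa1b are lowest in CKD saline 1 and 2, and Cryab, Hspb6 and Hspb7 are lowest in CKD JV001 3, where the ventricular markers are lowest too and the neutrophil markers highest.

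CKD JV001 against CKD saline asks what the injection did in the CKD mice. Of the 10 genes 6 had a positive and 4 a negative log2 fold change, with a median of 0.34 against 0.02 over all tested genes, and 0 of 10 passed the edgeR test, as did 0% of the 15004 tested genes. Positive values came from Hspa1b, Hspa1a, Hsp90aa1 (1.32, SE 0.55), Hspb1 (0.87, SE 0.39), Hspa8 (0.45, SE 0.31) and Dnajb1 (0.23, SE 0.41). Negative values came from the muscle genes Hspb7 (-0.72, SE 0.41), Hspb6 (-0.68, SE 0.37) and Cryab (-0.46, SE 0.34) and from Bag3 (-0.18, SE 0.18). At an unadjusted p under 0.05 there were 2 of the 10 genes, Hsp90aa1 and Hspb1 (edgeR, adjusted p = 0.276 for both), against 18.0% of all tested genes. The DESeq2 Wald test called 0 of the 9 genes for which it gave a p in each of the 7 comparisons, and it gave none for Hspa1b. Of all genes with an adjusted p it called 0.308% in CKD JV001 against CKD saline, 12.6% in CKD JV001 against sham JV001 and 12.5% in CKD against sham.

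The CKD libraries were also compared by their replicate number. Hspa1b was 7.40, 7.41 and 5.96 times as high in CKD JV001 1, 2 and 3 as in the CKD saline library of the same number, and Hspa1a 5.21, 6.49 and 2.75 times. Hspb7 stood at 0.66, 0.65 and 0.42 times, Hspb6 at 0.68, 0.64 and 0.49 times and Cryab at 0.81, 0.74 and 0.54 times. Hsp90aa1 and Hspb1 were higher in 3 of 3 pairs too, but mainly in the third, where Hsp90aa1 stood at 4.14 and Hspb1 at 3.35 times. In a fit of the 6 CKD libraries with the replicate number as a block, added after the data were seen, 5 of the 10 genes passed, against 19.9% of the 14289 genes tested in it. Hspa1a rose (log2 fold change 2.18, edgeR adjusted p = 0.0117) and so did Hspa1b (2.79, adjusted p = 0.0101). Hspb6 fell by 0.73 (adjusted p = 0.0143), Hspb7 by 0.81 (adjusted p = 0.0175) and Cryab by 0.52 (adjusted p = 0.0322) on the log2 scale by the same edgeR fit. With a block over all 4 groups 0 of 10 passed. The labels do not say that the numbers pair the libraries, and correlations between the libraries could not tell number 1 from number 2.

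Leaving libraries out changed the same comparison. A fit without a library 3 keeps only libraries 1 and 2 of that CKD group. These were the closest pairs of all (SD of log2 ratios 0.12 in CKD JV001 and 0.11 in CKD saline). The p-values of such fits therefore rest in part on a spread that may be technical. Without library 3 of both CKD groups, edgeR called 4 of the 10 genes, against 19.9% of the 15285 genes tested: Hspa1a (log2 fold change 2.51, adjusted p = 0.0203) and Hspa1b (2.86, adjusted p = 0.0177) rose, and Hspb6 (-0.63, adjusted p = 0.0455) and Hspb7 (-0.64, adjusted p = 0.0459) fell. Without CKD saline 3 alone, edgeR called Hspa1a (4.02, adjusted p = 0.0335) and Hspa1b (5.53, adjusted p = 0.0348), against 21.3% of 15459 genes. Without CKD JV001 3 alone the value was 0.18 for Hspa1a (edgeR, adjusted p = 0.950) and -0.01 for Hspa1b (edgeR, adjusted p = 0.997). The fold change of the HSP70 pair depended on which library 3 was kept, while the muscle genes kept a negative sign in each of these fits. The lower sum of ventricular markers and the higher fibroblast markers of CKD JV001 moved with these values, and their part in the result was not tested.

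**Figure D4:**
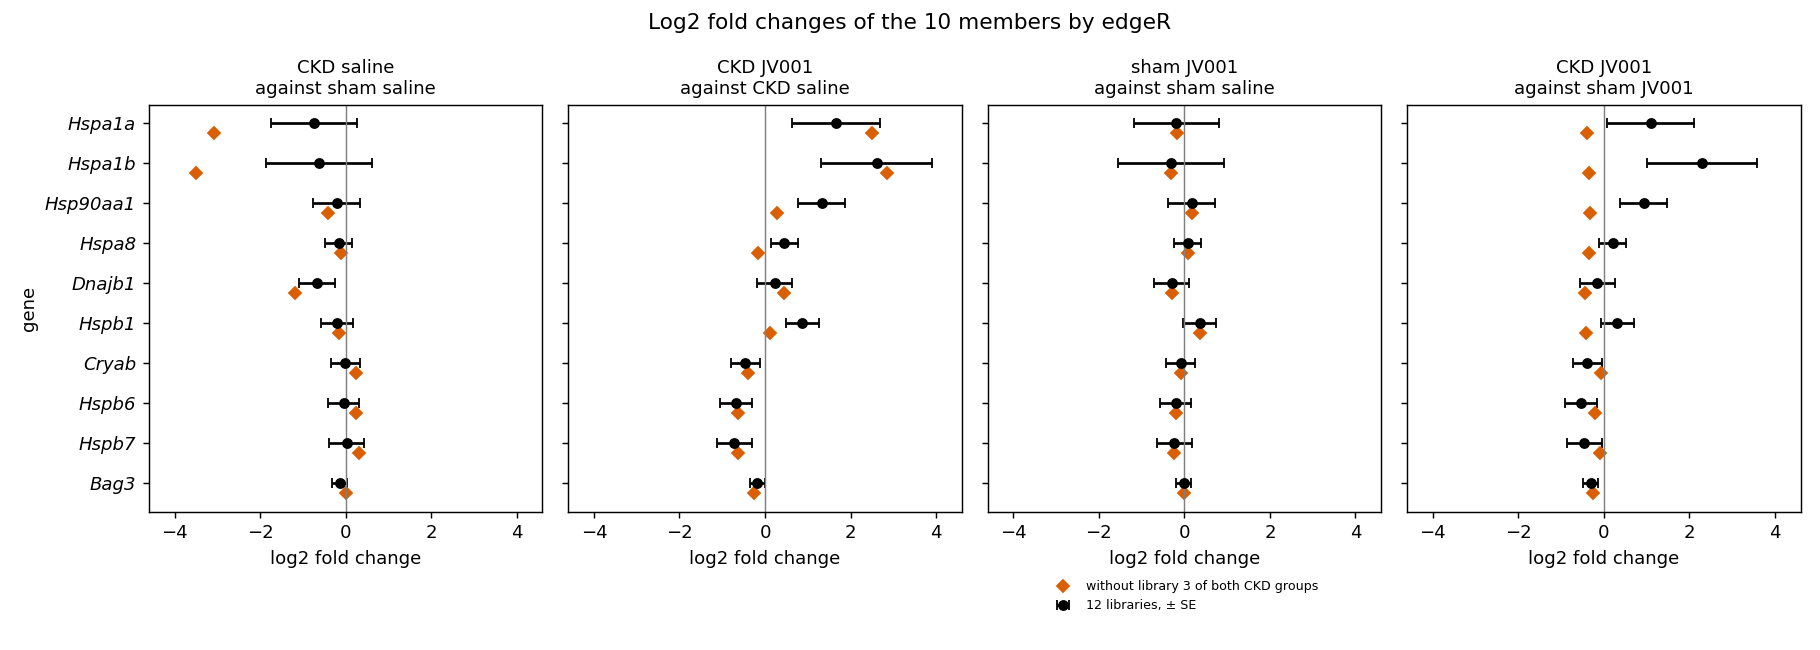
Log2 fold changes of the 10 genes by edgeR in 4 comparisons; black points with bars are the fit of 12 libraries ± SE, and orange diamonds the fit without library 3 of both CKD groups. The diamonds of Hspa1a and Hspa1b are far below 0 for CKD saline against sham saline and above 0 for CKD JV001 against CKD saline.

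CKD saline against sham saline asks what the CKD model did without JV001. The log2 fold changes ran from -0.74 (SE 1.01) for Hspa1a to 0.02 (SE 0.41) for Hspb7, 9 of 10 were negative, and the median was -0.18 against 0.01 over all tested genes. By edgeR 0 of 10 passed, the smallest adjusted p being 0.941 for Dnajb1 (log2 fold change -0.67, SE 0.41), and 0% of all tested genes did; at an unadjusted p under 0.05 there were 0 of 10 and 4.95%. CKD saline 1 and 2 held 10.2 to 12.5 CPM of Hspa1a, against 54.0 to 123 CPM in sham saline, but CKD saline 3 held 151 CPM. Without sham saline 1, edgeR again called 0 of 10, and Hspb7 stood at -0.16 (adjusted p = 0.932). Without library 3 of both CKD groups the log2 fold change was -3.50 for Hspa1b (edgeR, adjusted p = 0.0592) and -3.07 for Hspa1a (adjusted p = 0.204), and 0 of 10 passed.

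In the sham mice the differences between injections were small beside their errors. Sham JV001 against sham saline gave log2 fold changes from -0.31 (SE 1.23) for Hspa1b to 0.36 (SE 0.38) for Hspb1, with all groups overlapping. Without sham saline 1, Hspa1a stood at 0.022 and Hspa1b at -0.023, and edgeR called 0 of 10. By edgeR 0 of 10 passed, as did 0% of all tested genes, and at an unadjusted p under 0.05 there were 0 of 10 and 2.84%. The difference between the injection's effect in CKD and in sham mice was 2.92 (SE 1.77) for Hspa1b, 1.84 (SE 1.43) for Hspa1a, 1.15 (SE 0.77) for Hsp90aa1 and -0.48 (SE 0.58) for Hspb7 on the log2 scale. None of the 10 passed that interaction test (edgeR, smallest adjusted p = 0.840), nor did any tested gene (0%), and at an unadjusted p under 0.05 there were 0 of 10 and 3.78%.

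CKD JV001 against sham JV001 gave log2 fold changes of 2.29 (SE 1.29) for Hspa1b, 1.10 (SE 1.01) for Hspa1a and 0.94 (SE 0.55) for Hsp90aa1, and of -0.53 (SE 0.37) for Hspb6, -0.45 (SE 0.41) for Hspb7 and -0.38 (SE 0.34) for Cryab. By edgeR 0 of 10 passed, against 0.0200% of all tested genes, and at an unadjusted p under 0.05 there were 0 of 10 and 27.5%. This comparison and the first share the CKD JV001 libraries, so their like signs are not separate observations. Without CKD JV001 3 the values of the 3 stress genes were -0.33 for Hspa1b, -0.38 for Hspa1a and -0.31 for Hsp90aa1, so the direction rested on that library.

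Averaged over both injections, CKD against sham gave log2 fold changes from -0.41 (SE 0.29) for Dnajb1 to 0.83 (SE 0.87) for Hspa1b, and 0 of 10 passed (edgeR), against 0.473% of all tested genes. At an unadjusted p under 0.05 there were 0 of 10, against 27.7% of all tested genes. Without library 3 of both CKD groups the sign turned for the HSP70 pair, and edgeR called both lower in CKD: Hspa1a fell by 1.73 (adjusted p = 0.0233) and Hspa1b by 1.92 (adjusted p = 0.0123) on the log2 scale, which made 2 of 10 against 3.21% of the genes tested. In that setting the pair fell much further in CKD saline against sham saline than in CKD JV001 against sham JV001. Averaged over both operations, JV001 against saline gave 1.15 (SE 0.88) for Hspa1b, 0.75 (SE 0.39) for Hsp90aa1, 0.62 (SE 0.27) for Hspb1 and -0.48 (SE 0.29) for Hspb7, and 0 of 10 passed (edgeR), as did 0% of all tested genes. Hspb1 was the 1 gene of the 10 at an unadjusted p under 0.05 (edgeR, adjusted p = 0.338), against 14.4% of all tested genes. Without library 3 of both CKD groups edgeR called 4 of 10 in that comparison, against 20.3% of the genes tested: Hspa1a (1.16, adjusted p = 0.0292) and Hspa1b (1.28, adjusted p = 0.0220) rose, and Hspb6 (-0.42, adjusted p = 0.0425) and Hspb7 (-0.44, adjusted p = 0.0386) fell. For the pair this average joined unlike parts. In sham mice alone, JV001 against saline was -0.18 for Hspa1a and -0.31 for Hspa1b in the fit of 12 libraries.

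The muscle genes and Bag3 were also set against the ventricular marker mRNA of each library, as CPM per 1000 CPM of the 12 summed markers. That sum is not a measure of cell number. This ratio was chosen after the values were seen and is given without a test. Cryab had 26.6, 25.7 and 22.7 per 1000 in CKD JV001, 20.2, 21.3 and 20.4 in CKD saline, 17.5, 18.8 and 18.3 in sham JV001, and 19.7, 17.6 and 16.6 in sham saline. All 6 CKD libraries were above all 6 sham libraries, as for 3.31% of all tested genes, and all 3 CKD JV001 libraries were above all 3 CKD saline libraries, as for 18.3%. In plain CPM the same gene was lowest in the CKD groups' library 3. Hspb7 had 34.1, 33.4 and 24.2 per 1000 in CKD JV001, 32.0, 31.7 and 28.0 in CKD saline, 25.3, 22.2 and 24.5 in sham JV001, and 24.0, 26.5 and 27.4 in sham saline. Its CKD saline values were all above its sham saline values, as for 7.38% of all tested genes. Hspb6 had 9.20 to 11.0 per 1000 in CKD JV001 and 7.63 to 8.95 in sham JV001, without overlap, and Bag3 had 4.18 to 8.26 and 2.86 to 3.69 in these groups, again without overlap. In that comparison 69.2% of all tested genes were higher in CKD JV001 without overlap on this scale, whose divisor was 23949 to 54387 CPM in CKD JV001 and 76732 to 84672 CPM in sham JV001.

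**Figure D5:**
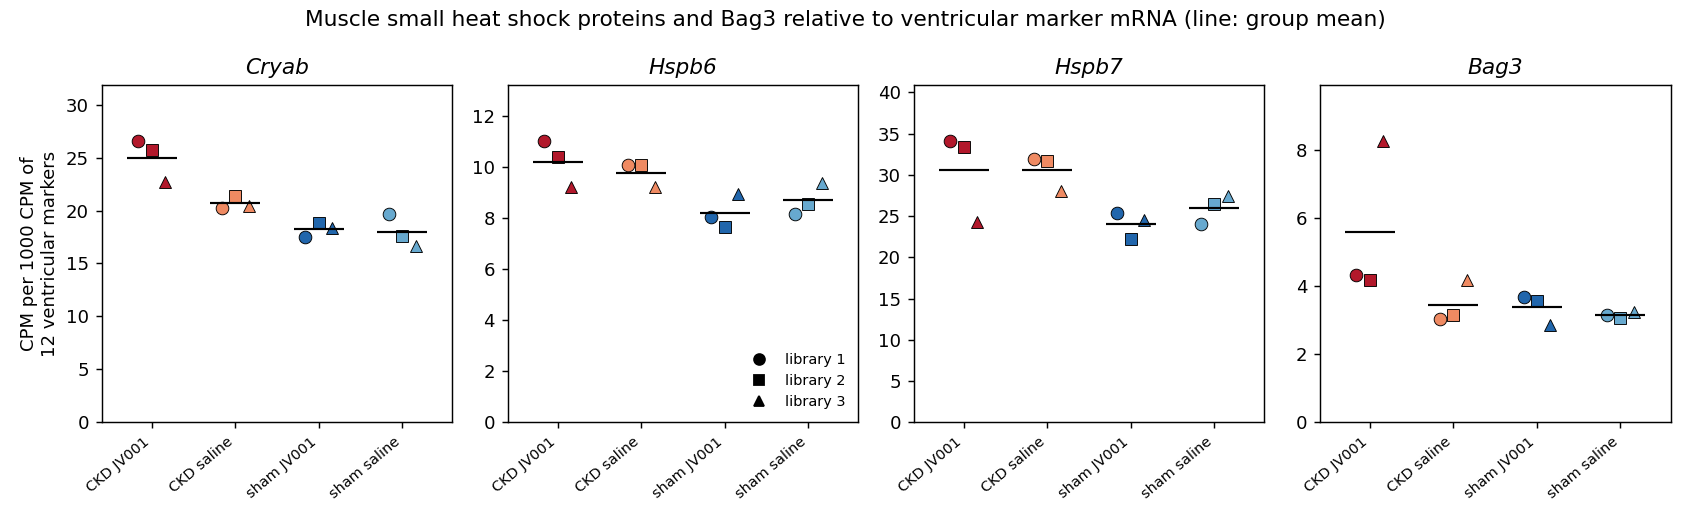
CPM of Cryab, Hspb6, Hspb7 and Bag3 per 1000 CPM of 12 summed ventricular markers in each library; shapes are library numbers and lines are group means. For Cryab every CKD library, 20.2 to 26.6, lies above every sham library, 16.6 to 19.7.

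The other chaperones and their partners were read from 10 lists with 86 genes, 83 of them tested: heat shock factors, further small heat shock proteins, HSP70 and HSP110, J-domain proteins, HSP90 cochaperones, BAG proteins, chaperones of the endoplasmic reticulum (ER) and of mitochondria, the chaperonin TRiC, and clients of BAG3. By edgeR 0 of 83 passed in each of the 7 comparisons, while 18 in CKD JV001 against CKD saline, 16 in CKD JV001 against sham JV001 and 12 in CKD against sham had an unadjusted p under 0.05. These are 21.7%, 19.3% and 14.5% of the 83, against 18.0%, 27.5% and 27.7% of all tested genes, so the shares of the last 2 comparisons lay below that of all genes. DESeq2 gave an adjusted p for 81 of these genes and called 3 in CKD JV001 against sham JV001 (Dnajb4, Synpo2 and the mitochondrial HSP70 Hspa9), 2 in CKD against sham (Synpo2 and Vcl) and 0 in the other 5 comparisons, and the shares of the 81 called in the first 2, 3.70% and 2.47%, were below the 12.6% and 12.5% of all genes with an adjusted p. In CKD JV001 against CKD saline 37 were positive and 46 negative, with a median log2 fold change of -0.12. The ER chaperones had 10 of 11 positive with a median of 0.72, the mitochondrial chaperones 6 of 7 negative with a median of -0.51, and the further small heat shock proteins 4 of 4 negative with a median of -0.49. The median over all tested genes was 0.02. CKD JV001 3 was above all other libraries for every ER chaperone but Canx. It was below them for every mitochondrial chaperone but Hspd1 and Hspe1, and for every further small heat shock protein but Hspb11. The part of that library in the medians was not tested. The 3 genes with the smallest p there were Synpo2, a Z-disc protein handled by BAG3 (-0.62, SE 0.20), Sdf2l1, an ER chaperone partner (1.49, SE 0.49), and Pdia3, a disulfide isomerase of the ER (0.72, SE 0.24; edgeR, adjusted p = 0.276 for each). Sdf2l1 had 8.04, 5.73 and 25.5 CPM in CKD JV001, 4.85, 5.18 and 3.97 CPM in CKD saline, 5.44, 7.96 and 3.76 CPM in sham JV001, and 5.08, 4.32 and 3.65 CPM in sham saline. In CKD JV001 against sham JV001 the 3 were Synpo2 (-0.83, SE 0.20), Dnajb4 (-0.81, SE 0.21) and Dnajc7 (-0.46, SE 0.14), with adjusted p = 0.0924, 0.0937 and 0.110 by edgeR. Averaged over both injections, the 3 for CKD against sham were Vcl, the focal adhesion protein vinculin (-0.32, SE 0.09), Synpo2 (-0.53, SE 0.14) and Dnajb4 (-0.49, SE 0.15), with adjusted p = 0.0821, 0.0826 and 0.0996 by edgeR. Vcl had 104, 101 and 125 CPM in CKD JV001, 122, 119.9 and 118 CPM in CKD saline, 141, 137 and 141 CPM in sham JV001, and 146, 148 and 148 CPM in sham saline. Its 6 CKD libraries lay below its 6 sham libraries, as for 1.51% of all tested genes. Averaged over both operations, the 3 for JV001 against saline were Fkbp5 (1.86, SE 0.61), Sdf2l1 (0.94, SE 0.34) and the ER protein Dnajc3 (0.51, SE 0.19; edgeR, adjusted p = 0.338 for each). CKD saline against sham saline had Hspa12a, a distant HSP70 relative (-0.62, SE 0.23), Vcl (-0.30, SE 0.12) and Bag5 (0.50, SE 0.26; edgeR, adjusted p = 0.941 for each). Sham JV001 against sham saline had Hspa12a (-0.44, SE 0.23), Bag5 (0.49, SE 0.26) and Fkbp5 (1.39, SE 0.85; edgeR, adjusted p = 1.00 for each). The interaction had Pdia4 (1.24, SE 0.54), Dnajb4 (-0.65, SE 0.30) and Synpo2 (-0.59, SE 0.29; edgeR, adjusted p = 0.840 for each).

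Many other chaperones were at an extreme in CKD JV001 3. It was the highest of the 12 libraries for 5 of the 10 genes, against 27.9% of all tested genes, and the lowest for 4 of 10, against 34.0%. Among the 83 other chaperones it was the highest for 34 and the lowest for 30. Hsph1, an HSP110 that frees clients from HSP70, had 713 CPM there, against 58.7 to 112 CPM in the other 11 libraries. Dnaja1, a J-domain partner of HSP70, had 451 CPM there, against 46.0 to 149 CPM, and Fkbp5, an HSP90 cochaperone that glucocorticoids induce, had 243 CPM, against 8.32 to 46.1 CPM. Hspb8, the small heat shock protein that binds BAG3, had 151 CPM there, against 356 to 665 CPM in the other 11. The 12 immediate early genes, which cell isolation can induce, together had 4019, 4002 and 4018 CPM in CKD JV001, 3151, 3160 and 3773 CPM in CKD saline, 5383, 4467 and 2279 CPM in sham JV001, and 2734, 3649 and 2328 CPM in sham saline. Their sum was level over the 3 CKD JV001 libraries, highest in library 3 of CKD saline, as Hspa1a and Hspa1b were, and in the same order as Hspa1a in sham JV001. In sham saline the order differed: the sum was highest in library 2 and Hspa1a in library 1. The neutrophil marker sum was highest in CKD JV001 3. The part of either list in these values was not tested.

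The genes most like Hspa1b and most like Cryab were sought among 7778 genes other than the 10, with a mean of at least 10 CPM, by the root mean square difference of centred log2 CPM over the 12 libraries. For Hspa1b the nearest were Arrdc4 (0.95), Irak2 (0.96), Ccl2 (1.01), Irf1 (1.04) and Tnfaip3 (1.05), against a median of 1.83 over all candidates, while Hspa1a, left out as 1 of the 10, was at 0.44. Arrdc4 is an arrestin-like protein, and the other 4 are a kinase, a chemokine, a transcription factor and an ubiquitin-editing enzyme of inflammatory signalling. The root mean square of Hspa1b's own centred log2 CPM was 1.77, so none of these genes followed it closely. Ccl2 had a median of 4.09 CPM and met the limit on the mean through its high values, up to 110 CPM. For Cryab the nearest were Uqcrq (0.05), Chchd10 (0.06), Ndufs7 (0.06), Ndufa11 (0.06) and Ndufb9 (0.07), against a median of 0.44. These 5 encode mitochondrial proteins, 4 of them subunits of the respiratory chain. All candidates share the 12 libraries and their depth, and CKD JV001 3 weighs on every such difference.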

How the data were processed

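The 10 genes and the lists were chosen with earlier results of these data known. The authors' tools were fastp, HISAT2 and HTSeq on build GRCm39, per the submitters' processing notes; versions, annotation, strand setting and the treatment of multiply mapped reads were not given. Per the labels' protocols, libraries were made with a VAHTS kit from RNA purified on RNeasy columns. The deposited counts are whole reads per gene symbol, unnormalised, in 22584 rows. The authors' FPKM came from those reads: of 10249 genes counted 50 times or more in all libraries, 1 length per gene linked counts and FPKM in 100%, at a tolerance of 0.01. Column names were read as the initials of a group with a replicate number.

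Counts were analysed with edgeR 4.0.16 in R 4.3.3: filterByExpr by group (minimum count 10), TMM factors, 1 fit of 4 group means over 12 libraries and the quasi-likelihood F test, with p-values adjusted by Benjamini-Hochberg over 15004 genes and a threshold of 0.05. The SE of a log2 fold change is its size divided by the square root of F. Log2 CPM used a prior count of 2. The test was checked on simulated counts without an outlying library, so the check does not cover the spread between these libraries. Named genes were all 10, the 3 other chaperones with the smallest p in a comparison, and the 5 genes nearest to Hspa1b and to Cryab in log2 CPM, without names of the form Gm plus number or ending in Rik or -ps.

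Replicate numbers were tested for pairing by the correlation of deviations from group means over genes. Same-numbered CKD JV001 and CKD saline libraries had r = 0.296, 0.289 and 0.492, all above 0.1, so the blocked values were set beside that result. The labels state no pairing, and the check cannot show it. Unlike-numbered libraries 1 and 2 were as near: r = 0.311 between CKD JV001 1 and CKD saline 2, and 0.270 between CKD JV001 2 and CKD saline 1. With library 3 apart in both groups, libraries 1 and 2 deviate alike whatever their number. Over all 18 same-numbered pairs r ran from -0.385 to 0.492. Libraries 1 and 2 of CKD saline were the closest pair of a group (chi-square per degree of freedom 8.31, above sampling noise, against 23.3 to 356 for the other pairs) and were kept as separate. Alternatives were RLE factors, no filter and a stricter filter, DESeq2 1.42.0, only the groups compared, the replicate block, each library left out, both CKD libraries 3 left out, libraries sized without mitochondrial and haemoglobin genes, the HSP70 pair summed, and limma 3.58.1 on log2(FPKM + 1) or log2(FPKM + 0.1). All p-values and binomial intervals are two-sided.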

Additional observations from a re-analysis of the deposited data

How the results depend on the processing

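With 3 libraries a group and SEs near 1 for the HSP70 pair on the log2 scale, differences of that size could not be resolved. None of the 10 genes passed under RLE factors, either filter, DESeq2, limma, only the groups compared, or a replicate block over 4 groups, in any of the 7 comparisons. The number of the 10 genes called in CKD JV001 against CKD saline was 5 with the replicate block of the CKD groups only (2850 genes in all), an alternative chosen after the data were seen, and 4 with library 3 of both CKD groups left out (3043 genes in all). That second setting gave 2 of 10 and 490 genes for CKD against sham over both injections, 4 of 10 and 3096 genes for JV001 against saline over both operations, and 1433 genes for CKD JV001 against sham JV001. In that setting each CKD group holds only libraries 1 and 2, the closest pairs of all. The cause of the higher counts was not tested. Over the alternatives run, the edgeR, DESeq2 or limma adjusted p in CKD JV001 against CKD saline ranged from 0.0117 to 0.950 for Hspa1a, 0.0101 to 0.997 for Hspa1b, 0.0143 to 0.687 for Hspb6, 0.0175 to 0.701 for Hspb7, 0.0322 to 0.846 for Cryab, 0.0955 to 0.927 for Hsp90aa1 and 0.176 to 0.796 for Hspb1. In CKD against sham it ranged from 0.0123 to 0.822 for Hspa1b, and in JV001 against saline from 0.0220 to 0.925 for Hspa1b, 0.0425 to 0.612 for Hspb6 and 0.0386 to 0.617 for Hspb7. DESeq2 gave no p for Hspa1b.

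Counts of all genes called also moved. DESeq2 called 48 genes in CKD saline against sham saline, 46 in CKD JV001 against CKD saline, 2 in sham JV001 against sham saline, 1768 in CKD JV001 against sham JV001, 1971 in CKD against sham and 35 in JV001 against saline. For CKD JV001 against sham JV001, in place of 3 genes, edgeR called 7 with RLE factors, 5 with no filter, 12 with the stricter filter, 792 with only the groups compared, 7 without mitochondrial and haemoglobin genes and 0 with the replicate block, and limma 74 on log2(FPKM + 1) and 10 on log2(FPKM + 0.1). For CKD against sham, in place of 71, the stricter filter gave 208, limma on log2(FPKM + 1) 164 and the replicate block 31.

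The signs of single genes turned as follows. In CKD saline against sham saline Cryab became 0.016 with DESeq2 and with RLE factors, 0.019 with only the groups compared, 0.0054 with the stricter filter and 0.017 without mitochondrial and haemoglobin genes, and Hspb7 became -0.068 with the replicate block and -0.11 with both limma settings. Bag3 became 0.0061 in sham JV001 against sham saline with the stricter filter. With limma on log2(FPKM + 1) and log2(FPKM + 0.1), Bag3 became 0.0044 and 0.0045 in CKD JV001 against CKD saline and 0.017 in both for the interaction, Dnajb1 became 0.067 and 0.075 in JV001 against saline, and in CKD against sham Hspa1a became -0.46 and -0.54, Hspa1b -0.29 and -0.41, Hspb1 -0.0092 and -0.0094, and Hspa8 -0.024 in both. With the replicate block Hspa1a became -0.76 and Hspa1b -0.83 in CKD against sham. Without library 3 of both CKD groups, CKD saline against sham saline gave 0.25 for Cryab, 0.23 for Hspb6 and 0.0075 for Bag3, and CKD JV001 against CKD saline gave -0.15 for Hspa8. CKD JV001 against sham JV001 then gave -0.38 for Hspa1a, -0.34 for Hspa1b, -0.41 for Hspb1, -0.32 for Hsp90aa1 and -0.34 for Hspa8. CKD against sham gave -1.73 for Hspa1a, -1.92 for Hspa1b, -0.28 for Hspb1, 0.10 for Cryab, 0.018 for Hspb6, 0.11 for Hspb7, -0.37 for Hsp90aa1 and -0.22 for Hspa8. JV001 against saline gave -0.035 for Hspa8 and 0.073 for Dnajb1, and the interaction -0.25 for Hspb1 and -0.24 for Hspa8.

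Leaving out 1 library at a time, the number of the 10 genes called in CKD JV001 against CKD saline was 0 to 2, the higher value without CKD saline 3, and genes called were 0 to 3287 there, 0 to 1612 in CKD JV001 against sham JV001, 0 to 94 in CKD against sham and 0 to 1135 in JV001 against saline. Log2 fold changes that turned ran as follows. In CKD saline against sham saline they were -0.16 to 0.25 for Cryab, -0.16 to 0.31 for Hspb7, -0.22 to 0.23 for Hspb6 and -0.27 to 0.0067 for Bag3. In CKD JV001 against CKD saline they were -0.014 to 5.53 for Hspa1b, -0.089 to 0.68 for Hspa8 and -0.059 to 0.75 for Dnajb1, each lowest without CKD JV001 3. In sham JV001 against sham saline they were -0.053 to 0.22 for Hspa8, -0.63 to 0.14 for Hspa1a, -0.16 to 0.067 for Bag3, -0.17 to 0.0039 for Cryab and -0.66 to 0.039 for Dnajb1. In CKD JV001 against sham JV001 they were -0.38 to 1.58 for Hspa1a, -0.33 to 2.83 for Hspa1b, -0.40 to 0.58 for Hspb1, -0.31 to 1.33 for Hsp90aa1, -0.33 to 0.45 for Hspa8 and -0.43 to 0.23 for Dnajb1. In CKD against sham they were -0.97 to 0.45 for Hspa1a, -0.58 to 1.12 for Hspa1b, -0.30 to 0.20 for Hspb1, -0.26 to 0.56 for Hsp90aa1 and -0.25 to 0.15 for Hspa8. In JV001 against saline they were -0.21 to 0.23 for Dnajb1, -0.0020 to 1.92 for Hspa1a, -0.16 to 2.61 for Hspa1b and -0.0052 to 0.38 for Hspa8, and for the interaction -0.20 to 0.78 for Hspb1, -0.10 to 1.53 for Hsp90aa1 and -0.17 to 0.59 for Hspa8.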
